A study of Mus musculus with 24 samples.

Results

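The 10 genes described here encode scaffold and membrane proteins of the striated muscle fibre: Acta1, Neb, Actn2, Actn3, Ldb3, Myot, Tcap, Ttn, Des and Cav3. They were taken from the array by gene name alone, as the probes whose name in the scanner files equals one of these symbols, which gave 17 of the 55681 probes and 10 of the 34836 gene names. Their levels were compared in 3 tissues of male mice from 2 inbred lines, New Zealand Obese (NZO/HiBomDife), an obese and diabetes-prone strain, and C57BL/6 (B6), a widely used lean strain. All animals received a diet with 45% fat and were sampled at 6 weeks of age, so diet and age were shared by every group. RNA came from skeletal muscle (called "quad" in the sample titles), brown fat (BAT) and gonadal white fat (gWAT), giving 6 groups of 4 arrays: NZO quad, B6 quad, NZO BAT, B6 BAT, NZO gWAT and B6 gWAT. The labels do not state whether each sample of a group is its own animal; p-values therefore reflect the spread between these samples, some of which may be technical. The tissue was bulk, so fewer cells of a type and less RNA per cell cannot be told apart.

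The sarcomere is the repeating contractile unit of striated muscle. Thin filaments of alpha-actin, accompanied by nebulin, are anchored in the Z-disc, where alpha-actinin cross-links them and a set of adaptor proteins binds; titin runs from the Z-disc to the M-band. Desmin filaments tie neighbouring Z-discs together, and caveolin-3 shapes the caveolae of the muscle cell membrane. Most of these proteins are used as markers of striated muscle, while desmin is also made by smooth muscle of vessel walls.

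A level is the log2 processed signal of a probe minus the 75th percentile of all probes on that array, so 0 means as bright as that percentile. Levels of different probes were not set against each other, because brightness depends on the probe. Where a gene had several probes, the one with the highest mean over the arrays in use stands for it. The probes of 3 genes cross an intron on the mouse build mm9 and therefore read spliced RNA. They are shown because 2 of them read the related alpha-actinins, and because Des had the smallest strain difference of the 10 genes in BAT. The Actn2 probe lies within chr13:12364990-12367362 (minus strand), the Actn3 probe within chr19:4861727-4862212 (minus strand) and the Des probe within chr1:75363404-75363629 (plus strand).
Actn2: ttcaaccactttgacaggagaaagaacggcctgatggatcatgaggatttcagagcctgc
Actn3: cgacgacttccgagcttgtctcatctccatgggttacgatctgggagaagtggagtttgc
Des: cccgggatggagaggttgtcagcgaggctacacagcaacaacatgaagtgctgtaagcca
The longest run of bases shared by the Actn2 and Actn3 probes was 6. This compares probe with probe, and whether either probe also binds RNA of the other gene was not tested. Of the other 7 probes in use, 6 lie at chr8:126416197-126416256 (Acta1), chr2:52097549-52097608 (Neb), chr14:35374689-35374748 (Ldb3), chr11:98246127-98246186 (Tcap), chr2:76542077-76542136 (Ttn) and chr6:112422739-112422798 (Cav3) on mm9, and the position of the Myot probe is not reported here. No mm9 gene annotation was used, so their exons are not given.

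RefSeq start sites on the build GRCm38.p6 were matched by symbol for 6 of the 10 genes (Acta1, Actn2, Cav3, Des, Ldb3 and Ttn). The 250 bases before the start were searched on both strands for the CArG box, which serum response factor binds, and for the MEF2 site, both classical elements of muscle promoters. A CArG box was present in 2 of the 6 genes, against 1.47% of all 32841 promoters of this length, and a MEF2 site in 1 of the 6, against 2.92%. The E-box letters CANNTG, bound by MyoD and many other factors, were present in 5 of the 6 genes and in 66.2% of all promoters. The 3 stretches with a CArG box or MEF2 site are printed below with those matches in capitals; for Ldb3, which has 2 listed starts, the stretch of the start that lies farther upstream is shown. They are, in order, chr8:123894776-123895025, chr14:34588682-34588931 and chr2:76982548-76982797, all on the minus strand.
Acta1: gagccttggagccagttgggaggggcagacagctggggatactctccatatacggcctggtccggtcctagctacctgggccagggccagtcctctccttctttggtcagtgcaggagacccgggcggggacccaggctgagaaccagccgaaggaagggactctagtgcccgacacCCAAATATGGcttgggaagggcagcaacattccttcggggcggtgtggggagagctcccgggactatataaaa
Ldb3: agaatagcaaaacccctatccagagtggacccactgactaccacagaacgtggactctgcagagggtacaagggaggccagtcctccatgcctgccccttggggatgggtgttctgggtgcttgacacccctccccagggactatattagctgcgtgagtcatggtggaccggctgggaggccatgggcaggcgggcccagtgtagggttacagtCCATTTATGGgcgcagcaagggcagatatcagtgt
Ttn: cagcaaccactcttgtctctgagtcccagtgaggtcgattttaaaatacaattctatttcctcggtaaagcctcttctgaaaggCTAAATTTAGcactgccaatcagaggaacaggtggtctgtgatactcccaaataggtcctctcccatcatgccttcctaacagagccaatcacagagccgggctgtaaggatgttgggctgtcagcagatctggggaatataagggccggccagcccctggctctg
The Acta1 match is a CArG box at bases -73 to -64 before the start, the Ldb3 match a CArG box at -35 to -26 and the Ttn match a MEF2 site at -166 to -157. These matches describe the letters in this window and do not show binding in any of the samples.

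No spot on any array was saturated, and between 51.9% and 59.3% of probes were well above background per array. Each tissue carried the markers of its label, and some arrays also carried markers of other tissues. The mean level of 10 fast muscle fibre markers outside the gene set was 8.90 to 9.16 on the 7 quad arrays in use. That of 7 brown adipocyte markers was 5.74 to 7.86 on the BAT arrays, against -1.59 to 2.49 on the gWAT arrays and 1.58 to 3.70 on the quad arrays in use. The mean level of 6 hepatocyte markers ranged widely, from -2.44 to 3.73 on the quad arrays in use and from -2.17 to 3.67 on the gWAT arrays. The part of these markers in the results was not tested. The mean level of 5 adipocyte markers was 7.39 to 8.06 on the gWAT arrays. The array B6 quad 011 stood apart in its adipocyte markers and was left out of the analysis. Its mean level of 5 adipocyte markers was 6.54, against 1.75 to 2.21 on the other B6 quad arrays. Leptin, for example, was at 3.64 there and at -3.66 to -3.13 on the others. The brown fat gene Ucp1 did not set it apart, at 4.57 there and at 0.59 to 4.91 on the others. All 10 muscle genes were lower on that array than on each other B6 quad array, with Des at 6.14 against 6.92 to 6.96. Results in quad are given with and without it.

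**Figure D1:**
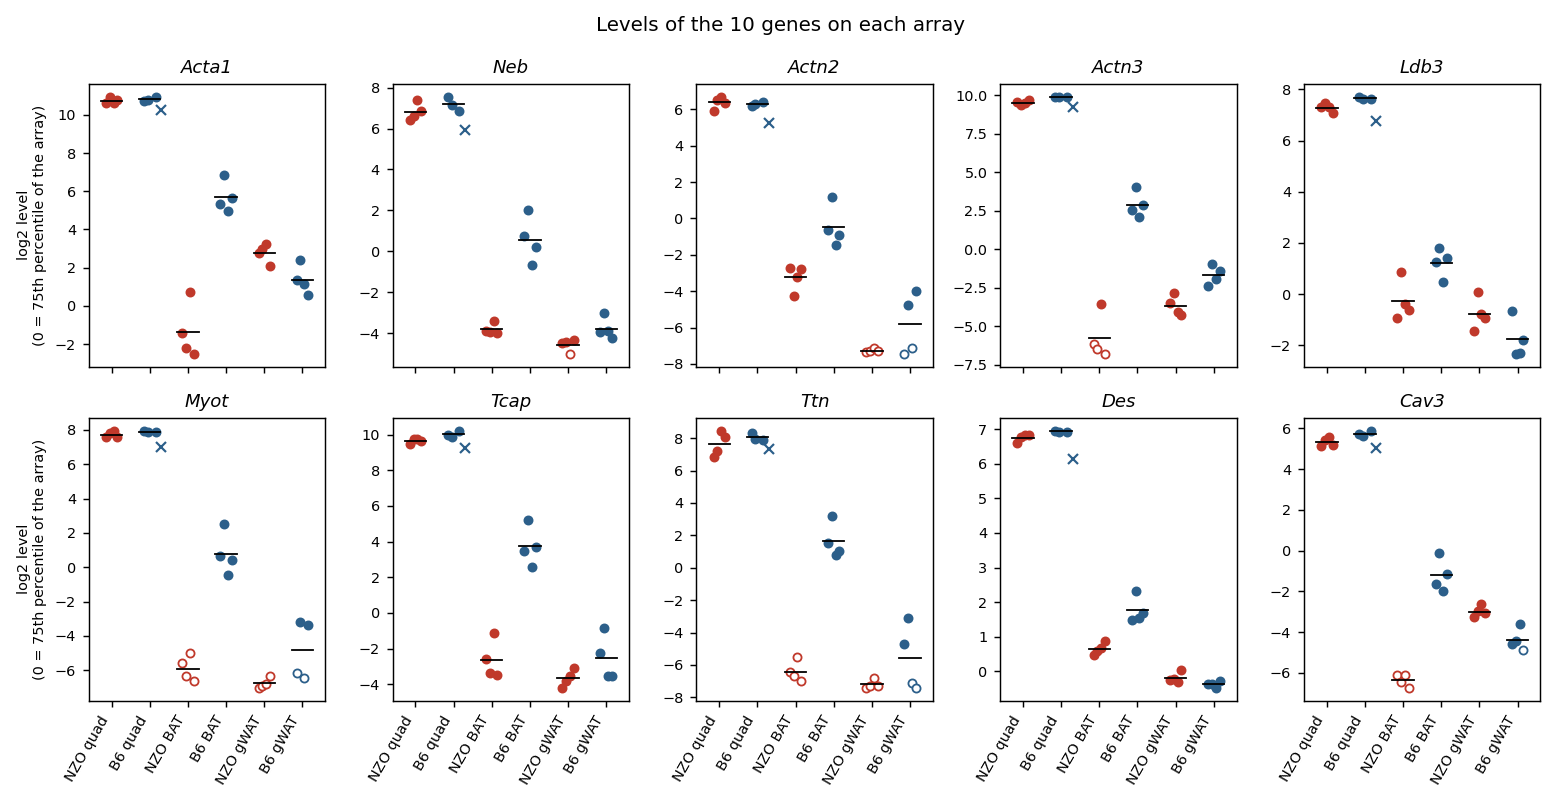
Levels of the 10 genes on every array, 1 panel per gene, with the log2 level on the vertical axis (0 is the 75th percentile of the array) and the 6 groups along the horizontal axis, NZO in red and B6 in blue. Filled points were well above background, open points were not, horizontal lines are group means, and the cross is the left-out array B6 quad 011; the 4 NZO BAT arrays lie below the 4 B6 BAT arrays in every panel except Ldb3.

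In BAT, all 10 genes were lower in NZO than in B6. Of all 20715 genes tested there, 15.7% were called in either direction and 8.1% were called lower. The median difference of the 10 genes, NZO minus B6, was -5.76 on the log2 scale (range -8.64 to -1.11), against a median of -0.0034 over all genes tested. With the 3 genes that no NZO array measured (Myot, Ttn and Cav3) set at their bounds, the median of the 10 was -4.81. At a bound, an array is set at the dimmest signal well above background on it, or at its own reading if higher. That is not a strict limit of detection. A second Ldb3 probe was not well above background at -3.78 on NZO 003, where the dimmest such signal was -4.12. Folds at a bound are therefore not minimum folds. Myot, Ttn, Cav3 and Actn3 were eligible for the test only through B6 BAT. That largely fixed their direction as lower, so their p-values are not support for it. Calls are those with an adjusted p under 0.05 in limma with Benjamini-Hochberg adjustment over all genes tested. In 9 of the 10 genes every NZO array lay below every B6 array. The share of all genes separated in this way was not computed, so this count has no background to be set against. The size depended on the treatment of background: with normexp correction (offset 50) all 10 were again called lower, with a median of -2.32 (range -5.86 to -0.96), and with the series' own table, which is not background-subtracted, the median was -2.97. Below, BAT values are given in the order 003, 007, 009 and 011 for NZO and 009, 010, 011 and 015 for B6.

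The thin filament genes showed large differences in BAT. Acta1 encodes the alpha-actin of the skeletal muscle thin filament. Its level was -1.43, -2.22, 0.75 and -2.51 in NZO BAT, against 5.34, 6.88, 4.95 and 5.66 in B6 BAT. All 8 arrays were well above background, and the groups did not overlap. The mean was -1.35 ± 1.47 in NZO and 5.71 ± 0.83 in B6 (SD, n = 4 each), a difference of -7.06 ± 0.73 (SE; limma adjusted p = 0.000466), or 133-fold lower in NZO. Neb encodes nebulin, the giant protein that lines the thin filament and sets its length. Neb stood at -3.87, -3.94, -3.39 and -3.99 in NZO BAT, against 0.74, 2.03, -0.65 and 0.20 in B6 BAT. The NZO arrays were close together, the B6 arrays were spread more widely, and the groups did not overlap. The difference was -4.38 ± 0.50 (SE; limma adjusted p = 0.000829), or 20.8-fold lower in NZO. The other 2 Neb probes pointed the same way, with means of -6.40 in NZO and -1.72 in B6 for one (0 of 4 NZO and 4 of 4 B6 arrays well above background), and -3.99 in NZO and 0.03 in B6 for the other (2 of 4 and 4 of 4).

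Both alpha-actinins, which cross-link actin in the Z-disc, were lower in NZO BAT. Actn3, the form of fast glycolytic fibres, was at -6.15, -6.46, -3.56 and -6.79 in NZO BAT, against 2.57, 4.03, 2.11 and 2.89 in B6 BAT. Of the NZO arrays, 009 alone was well above background, so a direction is given and no fold. The fitted difference of -8.64 ± 0.73 (SE; limma adjusted p = 0.000164) therefore includes values at the limit of detection. Actn2, the form found in all skeletal fibres and in the heart, was at -2.71, -4.29, -3.21 and -2.76 in NZO BAT, against -0.64, 1.15, -1.48 and -0.92 in B6 BAT. All 8 arrays were well above background. The difference was -2.77 ± 0.59 (SE; limma adjusted p = 0.0153), or 6.83-fold lower in NZO. A second Actn2 probe was not well above background on any BAT array of either strain.

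The 3 Z-disc adaptors Tcap, Myot and Ldb3 were lower in NZO BAT. Tcap (telethonin) caps the N-terminal ends of titin. It was at -2.60, -3.36, -1.15 and -3.46 in NZO BAT, against 3.45, 5.19, 2.59 and 3.68 in B6 BAT, with all 8 arrays well above background. The groups did not overlap, and the difference was -6.37 ± 0.66 (SE; limma adjusted p = 0.000462), or 82.6-fold lower in NZO. Myot encodes myotilin, which binds alpha-actinin and filamin at the Z-disc. It was at -5.60, -6.35, -5.01 and -6.62 in NZO BAT, none of them well above background, against 0.67, 2.52, -0.43 and 0.44 in B6 BAT. At its bound Myot was 37.8-fold lower in NZO on the processed signal (limma adjusted p = 0.000268).

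Ldb3 (also called Cypher or ZASP) is a PDZ and LIM domain protein that binds alpha-actinin. Its probe in use was at -0.92, 0.87, -0.37 and -0.63 in NZO BAT, against 1.24, 1.80, 0.49 and 1.41 in B6 BAT. Here the groups overlapped, since NZO 007 lay above B6 011. The difference was -1.50 ± 0.42 (SE; limma adjusted p = 0.0475), or 2.82-fold lower in NZO. This call was lost when any of 6 arrays was left out (NZO 003, 009 or 011, or B6 009, 010 or 015), with limma adjusted p from 0.104 to 0.125. It was also lost with the slide as a block (adjusted p = 0.215). The other Ldb3 probe, which targets another transcript, averaged -4.01 ± 0.54 in NZO BAT, with 1 of 4 arrays well above background, and -1.06 ± 0.78 in B6 BAT with 4 of 4.

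Ttn encodes titin, the elastic filament that spans the sarcomere from Z-disc to M-band. Its probe in use was at -6.41, -6.70, -5.50 and -7.01 in NZO BAT, none of them well above background, against 1.55, 3.20, 0.78 and 1.04 in B6 BAT. At this probe Ttn was 67.8-fold lower in NZO at its bound (limma adjusted p = 5.48e-05). The other 3 Ttn probes also had lower means in NZO BAT, at -6.34, -4.69 and -5.56, against 0.41, -3.44 and -2.91 in B6 BAT. They were well above background on 0, 1 and 0 of 4 NZO arrays and on all 4 B6 arrays each.

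Des and Cav3 lie outside the filaments. Des encodes desmin, the muscle intermediate filament, which is made in smooth as well as striated muscle. It was at 0.48, 0.58, 0.68 and 0.88 in NZO BAT, against 1.49, 2.34, 1.56 and 1.68 in B6 BAT. The groups did not overlap, and the difference of -1.11 ± 0.19 (SE; limma adjusted p = 0.00677), or 2.16-fold lower in NZO, was the smallest of the 10. Cav3 encodes caveolin-3, the muscle form of the protein that builds caveolae. It was at -6.12, -6.48, -6.13 and -6.75 in NZO BAT, none of them well above background, against -1.62, -0.12, -1.99 and -1.14 in B6 BAT. On the processed signal Cav3 was 9.34-fold lower in NZO at its bound (limma adjusted p = 8.10e-05). With normexp correction the Cav3 difference was -1.06 (adjusted p = 0.00525), and that of Myot was -2.42 and that of Ttn -3.43.

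**Figure D2:**
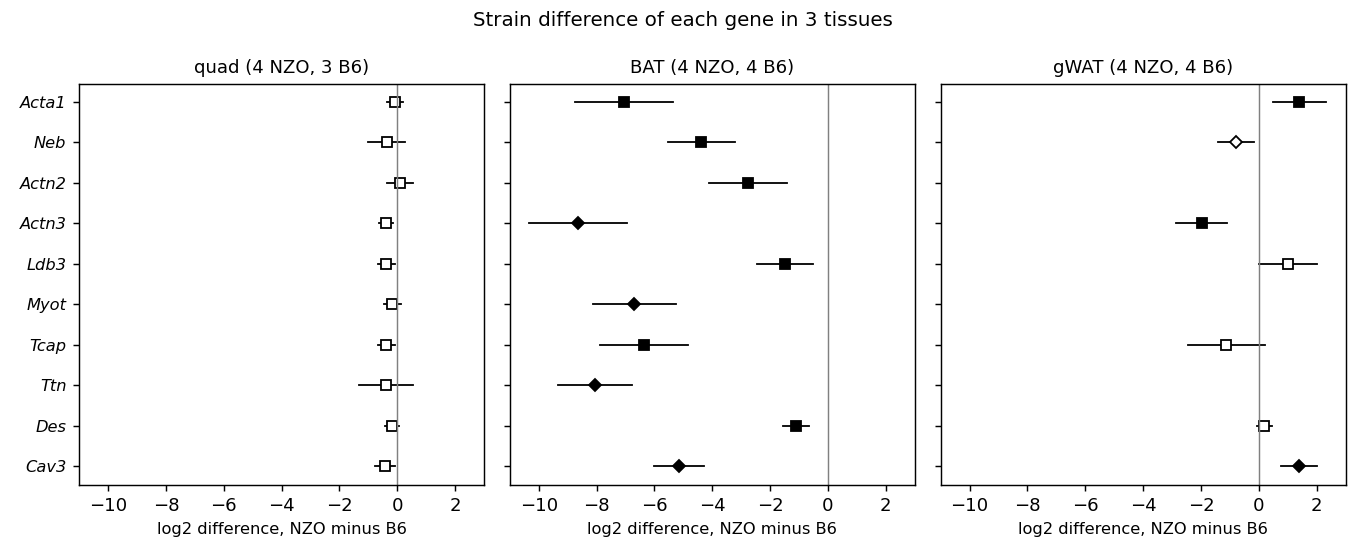
Difference NZO minus B6 on the log2 scale (horizontal axis) for each gene in quad, BAT and gWAT, with its 95% interval from limma. Filled symbols passed an adjusted p of 0.05, squares had every array of both groups well above background, diamonds did not (their size is uncertain), and untested genes are blank; BAT differences run from -8.64 to -1.11, and quad differences from -0.42 to 0.09.

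Some BAT arrays were high or low for most of these genes. Among the B6 BAT arrays, 010 was the highest for 10 of 10 genes, above the mean of the other 3 arrays by 0.75 (Ldb3) to 2.30 (Myot) on the log2 scale. Array 011 was the lowest for 9 of 10. Among the NZO BAT arrays, 009 was the highest for 6 of 10, with the largest offset, 2.91, for Actn3. The mean of the 10 fast muscle fibre markers outside the set was also highest on these 2 arrays. It was -3.52, -4.37, -1.96 and -4.66 in NZO BAT and 3.07, 4.52, 2.49 and 3.16 in B6 BAT.

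All 10 of these fibre markers (Ckm, Pvalb, Tnnt3, Tnni2, Tnnc2, Mylpf, Myh4, Myh1, Casq1 and Ryr1) were lower in NZO BAT, with a median difference of -7.20. Mylpf and Casq1 were not well above background on any NZO BAT array. Of 5 slow fibre markers 2 were lower among 4 tested, and of 8 smooth muscle and mural markers 4 were lower, with a median of -0.53. Of 7 brown adipocyte markers 1 was lower, and of 5 adipocyte markers 2 were higher. Of 4 muscle progenitor markers (Pax7, Myf5, Myod1 and Myog), 1 was tested in BAT, at 1.39 higher in NZO and not called. The muscle regulators Myod1 and Myog were not well above background on any BAT array. On the B6 quad arrays in use they were at 0.67 to 1.08 and 0.08 to 0.72. At the median distance of the 10 genes between B6 quad and BAT (6.52), neither would be measurable in BAT. The fibre markers were lower together with the 10 genes, as were some slow fibre and smooth muscle markers, and their part in the result was not tested.

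Slide and strain were partly mixed in BAT, and the comparison can be made within 1 slide, which held 1 array of each strain. There all 10 genes were lower in NZO, by a median of -6.07 (range -9.35 to -0.55). With slide as a block over all groups, 9 of the 10 were called lower, Ldb3 being the exception.

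In gWAT the strain differences were smaller and went both ways. Of the 7 genes tested, 2 were higher in NZO and 1 was lower, against 31.6% of 21539 genes called in this tissue (15.9% higher and 15.7% lower). The median difference of the 7 was 0.19, against -0.0040 over all genes tested. Of all genes called in gWAT 50.4% were higher in NZO, and 75.1% when arrays were centred on their median, which moves the median of all genes to 0.28. Values of NZO gWAT are given in the order 003, 007, 009 and 012, and those of B6 gWAT in the order 009, 010, 011 and 015. Acta1 was at 2.78, 2.96, 3.24 and 2.09 in NZO, against 1.36, 2.41, 1.12 and 0.56 in B6. The groups overlapped at B6 010, and the difference was 1.40 ± 0.40 (SE; limma adjusted p = 0.0293), or 2.65-fold higher in NZO. This call was lost without any one of NZO 003, 007 or 009, or B6 009, 011 or 015 (adjusted p 0.0559 to 0.0803).

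Cav3 was at -3.28, -2.97, -2.65 and -3.08 in NZO gWAT, against -4.57, -4.46, -3.60 and -4.89 in B6 gWAT. It was higher in NZO (limma adjusted p = 0.00609), but B6 015 was not well above background, so 3 of 4 B6 arrays measured it. Actn3 was at -3.48, -2.82, -4.05 and -4.24 in NZO gWAT, against -2.38, -0.97, -1.91 and -1.43 in B6 gWAT. The groups did not overlap, and the difference was -1.98 ± 0.38 (SE; limma adjusted p = 0.0059), or 3.93-fold lower in NZO. With the slide as a block the Actn3 difference became -1.49 (adjusted p = 0.0907). Acta1 and Actn3, the thin filament actin and the fast alpha-actinin, differed in opposite directions in gWAT and in the same direction in BAT.

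Tcap, Neb, Des and Ldb3 did not pass the test in gWAT, with differences of -1.12, -0.78, 0.19 and 1.00 (limma adjusted p = 0.177, 0.0578, 0.218 and 0.117). Neb passed without B6 015 (adjusted p = 0.0436) and Ldb3 without B6 009 (adjusted p = 0.0248). Des passed when arrays were centred on their median (0.48, adjusted p = 0.0461). Actn2, Myot and Ttn were well above background on 2 of 4 B6 arrays and on none of the NZO arrays, and were not tested. Array B6 gWAT 010 was the highest for 6 of 10 genes, with Ttn at -3.12 there and -7.42 on B6 015. The fast fibre markers moved alike, with a mean level of -0.65 on B6 gWAT 010, against -3.76 to -2.30 on the other B6 gWAT arrays and -3.46 to -2.73 in NZO gWAT. Of 7 brown adipocyte markers, 5 were higher in NZO gWAT, with mean levels of 2.09 to 2.49, against -1.59 to -0.35 in B6 gWAT. Their part in the gWAT differences was not tested. Within each of the 2 slides that held both strains, 4 of the 7 tested genes were higher and 3 lower in NZO.

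In quad, the striated muscle itself, 0 of the 10 genes passed the test between the strains, against 10.7% of 20806 genes called. At an unadjusted p under 0.05, 4 of the 10 passed in limma. The share of all genes under that unadjusted threshold is not given here, so this count has no background. The 10.7% is for the adjusted p and cannot be set against it. Differences ran from -0.42 (Cav3) to 0.09 (Actn2), with a median of -0.37, against -0.033 over all genes tested. Acta1 was at 10.63, 10.90, 10.62 and 10.79 on the NZO arrays 003, 007, 009 and 011, against 10.73, 10.78 and 10.96 on the B6 arrays 009, 010 and 015. The groups overlapped, and the 95% interval of the difference was -0.36 to 0.19. Actn3 was at 9.54, 9.36, 9.51 and 9.66 in NZO, against 9.89, 9.88 and 9.92 in B6, without overlap. The difference was -0.38 (interval -0.62 to -0.13; limma adjusted p = 0.0633), or 1.30-fold. Ttn had the widest spread, at 6.84, 7.23, 8.47 and 8.09 in NZO and 8.30, 7.94 and 7.90 in B6, and its interval was -1.32 to 0.54.

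Tcap, Des, Ldb3 and Cav3 also did not overlap in quad, with every NZO array below every B6 array. The share of all genes without overlap in quad was not computed, so the lack of overlap is a description only. Their differences were -0.38, -0.18, -0.37 and -0.42 (limma adjusted p = 0.101, 0.287, 0.0924 and 0.114). Ldb3 passed with normexp background correction (-0.38, adjusted p = 0.0471) and with the series' own value table (-0.39, adjusted p = 0.0325). With B6 quad 011 kept in, none of the 10 passed, and Acta1, Des and Myot changed sign to 0.052, 0.019 and 0.054. All 17 probes of the 10 genes were well above background on all 4 NZO quad arrays, so each of them gave a signal with NZO RNA. On the 1 slide that held both strains in quad, 2 genes were higher and 8 lower in NZO. The mean level of 5 adipocyte markers was 2.60 to 3.60 in NZO quad, against 1.75 to 2.21 in B6 quad, with 2 of the 5 called higher, and its part in these differences was not tested.

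The distance between muscle and BAT differed between the strains. All 10 genes were higher in quad than in BAT in each strain, where 26.8% of genes were called higher in NZO and 29.2% in B6. Over the 6 genes measured on all NZO BAT arrays, the distance in NZO ran from 6.10 (Des) to 12.30 (Tcap) on the log2 scale. Myot, Ttn and Cav3, which no NZO BAT array measured, were 4591-fold, 4374-fold and 876-fold higher in NZO quad at their bounds. Actn3 was measured on 1 of 4 NZO BAT arrays. In B6 the distance ran from 5.11 (Acta1) to 7.10 (Myot), a span of 1.99 over all 10. In linear terms the B6 BAT signal of the 10 genes was 0.730% (Myot) to 2.89% (Acta1) of the B6 quad signal, with a median of 1.09%. In NZO BAT the 6 genes measured on all arrays were at 0.0199% (Tcap) to 1.46% (Des) of the NZO quad signal. Des at 1.46% in NZO and 2.78% in B6, and Ldb3 at 0.533% in NZO and 1.16% in B6, were the closest between the strains among those 6. With B6 quad 011 kept in, 10 of 10 genes were still higher in B6 quad than in either fat.

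**Figure D3:**
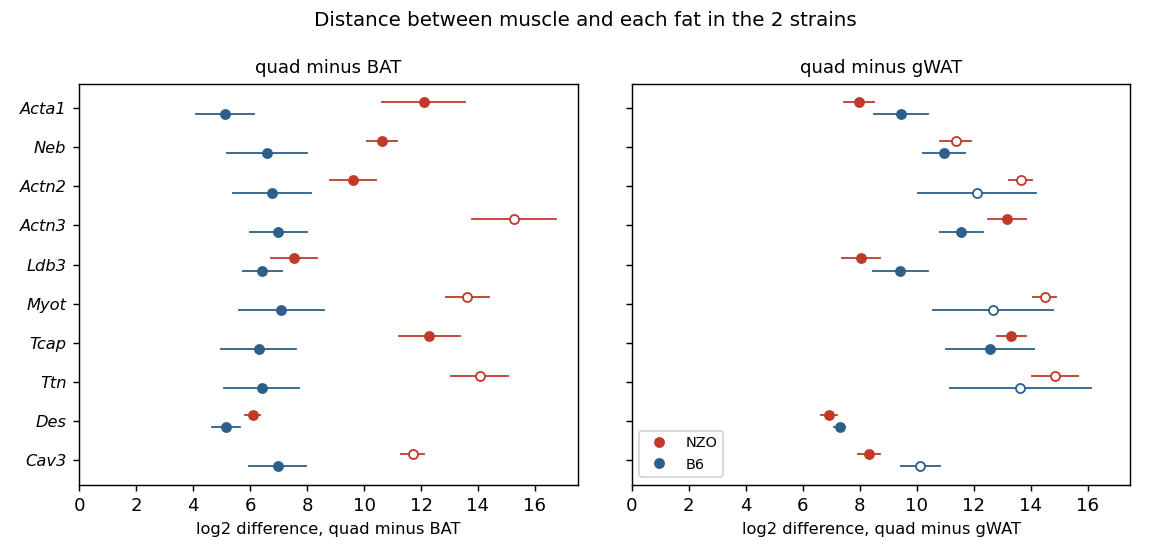
Level in quad minus level in BAT (left) and in gWAT (right) on the log2 scale, with the 95% interval from limma, for each gene in NZO (red, upper) and B6 (blue, lower). Filled points had every fat array well above background and open points did not; for BAT the B6 values lie between 5.11 and 7.10 and the NZO values between 6.10 and 15.26, where open points have no certain size.

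In gWAT all 10 genes were again lower than in quad in each strain, where 36.3% of genes were called higher in quad in NZO and 36.8% in B6. Over the 6 genes measured on all gWAT arrays of the strain, the distance ran from 6.93 (Des) to 13.32 (Tcap) in NZO and from 7.30 (Des) to 12.58 (Tcap) in B6. Myot, Ttn and Actn2, which no NZO gWAT array measured, were 6861-fold, 6537-fold and 2700-fold higher in NZO quad at their bounds. Neb was measured on 3 of 4 NZO gWAT arrays.

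At the probes in use, the order of the fat depots differed between the strains for 3 of the 8 genes tested in NZO. For 2 of these it depended on the background correction. In B6 all 10 genes were higher in BAT than in gWAT, where 36.2% of genes were called higher. Over the 6 genes measured on all B6 gWAT arrays the difference ran from 2.13 (Des) to 6.27 (Tcap), while Actn2, Myot and Ttn were measured on 2 of 4 of these arrays and Cav3 on 3 of 4. In NZO, 8 genes were tested, 3 were higher in BAT and 3 were lower, where 39% of genes were called higher and 25.1% lower. Acta1 was lower in NZO BAT than in NZO gWAT, with a mean of -1.35 ± 1.47 in BAT and 2.77 ± 0.49 in gWAT (SD, n = 4 each), a difference of -4.12 ± 0.65 (SE; limma adjusted p = 0.000678). Cav3 was lower in NZO BAT, by 2.73-fold at its bound (limma adjusted p = 1.57e-06). Actn3, measured on 1 of 4 BAT arrays, was also lower (limma adjusted p = 0.0244). The Actn3 call was lost without any of 5 arrays (NZO BAT 003, 007 or 011, or NZO gWAT 003 or 007; adjusted p 0.0529 to 0.0653). With normexp background correction the Actn3 difference was 0.23 and that of Cav3 0.020, so the direction of these 2 dim readings depended on the background correction.

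Actn2 was higher in NZO BAT than in NZO gWAT, by 3.43-fold at its bound (limma adjusted p = 1.12e-05). Neb and Des were higher by 0.75 and 0.83 (limma adjusted p = 0.00928 and 0.000679). When arrays were centred on their median, which moves the median of all genes in this comparison to -0.25 from 0.25, Neb and Des were 0.25 and 0.33 higher and not called. Neb was also not called with quantile normalization (0.20, adjusted p = 0.357), with slide as a block (adjusted p = 0.112) or in 1 fit over all groups (adjusted p = 0.101). Tcap and Ldb3 did not pass (differences 1.02 and 0.51), and Myot and Ttn were not well above background in either depot. Samples with the same number deviated together in these 2 depots, but not in every pair of tissues. The use of the number as a block here was chosen on these same data. With the number as a block, Tcap (1.49, adjusted p = 0.0232) and Ldb3 (0.58, adjusted p = 0.0262) passed and Actn3 did not (adjusted p = 0.0854). The other Ldb3 probe averaged -4.01 in NZO BAT against -0.66 in NZO gWAT, and -1.06 in B6 BAT against -1.11 in B6 gWAT, which differs from the probe in use in both strains.

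The strain difference itself was tested between tissues, in a limma fit over all 23 arrays. It was lower in BAT than in quad for 8 of the 10 genes, where 6.31% of genes were called and 2.98% were called lower. Acta1 differed by -6.98 ± 0.80 (SE; adjusted p = 1.96e-05) and Des by -0.93 ± 0.21 (SE; adjusted p = 0.0101). Actn2 (-2.86, adjusted p = 0.0718) and Ldb3 (-1.12, adjusted p = 0.308) did not pass. The Des call was lost with slide as a block (adjusted p = 0.0809) and with centring on the median (adjusted p = 0.0893). Cav3 differed by -0.60 and was not called with normexp (adjusted p = 0.232). Actn2 passed under 5 alternatives (adjusted p 0.0162 to 0.0488), one of them with B6 quad 011 kept in. The strain difference was lower in BAT than in gWAT for 9 of the 10, where 19.4% of genes were called and 10.1% were called lower. The 9 include Myot and Ttn, which were measured on no NZO fat array and on 2 of 4 B6 gWAT arrays, so for these the test rests on B6 BAT. The exception was Actn2 (-1.33, adjusted p = 0.319), which passed with normexp (adjusted p = 0.0265), and Cav3 had the smallest adjusted p (-6.54 ± 0.44 SE, adjusted p = 1.01e-08). Both tests use the same 8 BAT arrays.

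Other sarcomere genes were also lower in NZO BAT. Of 42 sarcomere partners, which include M-band, Z-disc, chaperone and stress-sensing proteins, 38 were tested in BAT, 27 were lower in NZO and 0 were higher, with a median difference of -2.51, where 15.7% of all genes were called and 8.1% were called lower. The 3 with the largest differences were Myom2, an M-band protein (-7.99; NZO mean -5.53, B6 mean 2.46), Mybpc2, the fast myosin-binding protein C (-6.43; NZO -4.12, B6 2.31) and Myoz1, a Z-disc calsarcin (-6.22; NZO -4.08, B6 2.14). These were well above background on 1, 2 and 2 of 4 NZO arrays, and limma adjusted p was 0.000392, 0.000279 and 0.000256. All 3 were eligible for the test only through B6 BAT, which largely fixed their direction. The count of 27 includes such genes. Of 20 genes of the muscle membrane and costamere, 16 were tested, 5 were lower and 0 higher, with a median of -0.21, against the same 15.7% of all genes. Sgca, a sarcoglycan of the dystrophin complex, was lower by -2.84 (NZO -2.35, B6 0.49; limma adjusted p = 0.005). Trim72, a membrane repair protein, was 2.76-fold lower at its bound (limma adjusted p = 0.0171).

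Relatives of the 10 genes were called in both directions in BAT. Their list, named non-muscle relatives, also holds muscle forms such as the actins Actc1, Acta2 and Actg2. Of 16 tested, 2 were higher and 3 lower in NZO, with a median of 0.05, where 15.7% of all genes were called. The ubiquitous actins Actb (8.29 in NZO, 8.35 in B6) and Actg1 (7.52 in NZO, 7.50 in B6) and the non-muscle alpha-actinins Actn1 (-2.70 in NZO, -2.75 in B6) and Actn4 (5.11 in NZO, 5.03 in B6) did not pass. Cav1, the caveolin of adipocytes and endothelium, was at 2.79 in NZO and 2.64 in B6, and vimentin (Vim) at 5.94 in NZO and 5.98 in B6, and neither passed. The lower relatives were Actc1, the actin of heart and developing skeletal muscle, and the smooth muscle actins Actg2 (-1.19) and Acta2 (-0.58). Actc1 was 15.5-fold lower at its bound (limma adjusted p = 0.000427). All 3 lower genes were thus muscle actins. Pdlim1 (0.47) and Pdlim2 (0.60), PDZ and LIM domain proteins, were the higher ones.

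**Figure D4:**
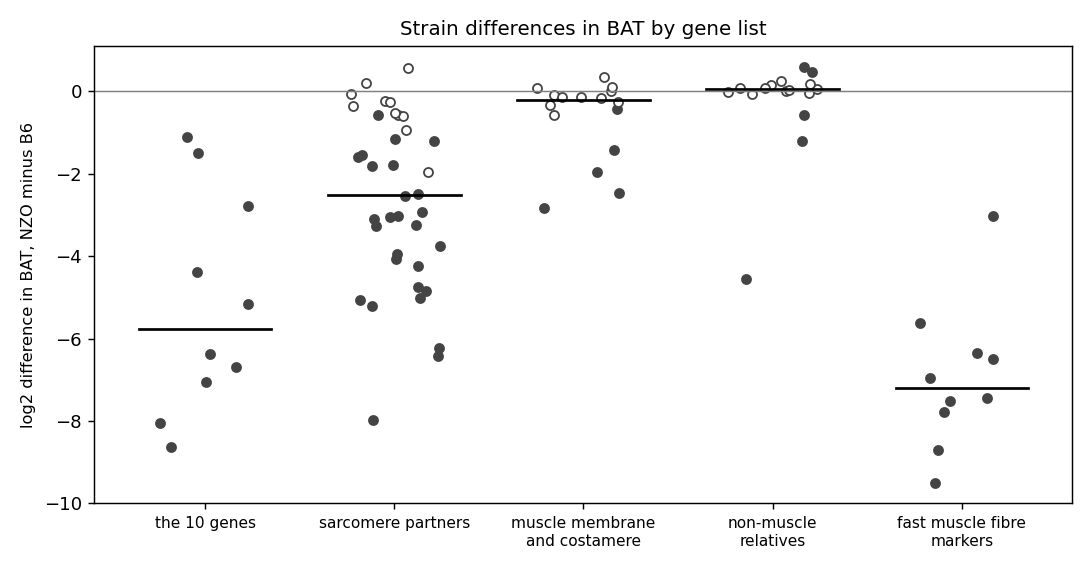
Log2 difference NZO minus B6 in BAT (vertical axis) for each tested gene of 5 lists, with list medians as lines. Filled points passed an adjusted p of 0.05 in limma. Medians are -5.76 for the 10 genes, -2.51 for sarcomere partners, -0.21 for muscle membrane and costamere, 0.05 for non-muscle relatives and -7.20 for fast muscle fibre markers. The list of non-muscle relatives includes the muscle actins Actc1, Acta2 and Actg2.

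The sarcomere partners and the membrane genes were called in both directions in quad, where 10.7% of all genes were called, and in gWAT, where 31.6% were. In quad 3 of 42 sarcomere partners were higher in NZO and 7 lower (median -0.25), led by Ankrd1, a titin-binding stress-response protein (2.25 higher, NZO 2.67, B6 0.42; limma adjusted p = 0.0273), Klhl41, a kelch protein of the sarcomere (1.29 higher; adjusted p = 0.000521) and Myoz3 (-0.96; adjusted p = 0.012). Of 20 membrane and costamere genes 1 was higher, the repair protein Dysf (0.51, adjusted p = 0.044), and 1 was lower, Ano5 (-1.61, adjusted p = 0.0007). In gWAT 6 of 27 partners tested were higher and 6 lower (median -0.19), with Cryab, a desmin chaperone, lower by -2.30 (NZO 2.72, B6 5.02; limma adjusted p = 6.85e-06), Mybpc2 lower by -1.41 (adjusted p = 0.027) and Tmod4 higher by 1.39 (adjusted p = 0.00451). Of 15 membrane genes tested there 2 were higher and 3 lower, among them Dysf (0.74 higher), Utrn (-1.05) and Sgca (-0.80).

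Over the 23 arrays, the genes whose levels tracked the mean of the 10 most closely were Apobec2, Pvalb, Klhl40 and Mylpf, together with 1 feature that has no gene symbol. The measure was the median absolute difference of centred log2 levels, and it was 0.23 for Apobec2, 0.27 for Pvalb, 0.28 for Klhl40 and 0.30 for Mylpf. Among the 10 themselves Neb followed the mean most closely (0.27) and Des least (1.99). Apobec2 averaged -6.53 in NZO BAT and -1.66 in B6 BAT, and 4.52 in NZO quad and 4.60 in B6 quad. The NZO BAT means of Apobec2, Klhl40 (-6.31) and Mylpf (-5.72) lay below the dimmest signal well above background on those arrays (-4.71 to -4.12). They are not measured levels, and the distances include such readings.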

How the data were processed

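Total RNA labelled with Cy3 was hybridised to 1-colour Agilent mouse arrays, 24 in all. Per the file headers, Feature Extraction (Agilent) 11.0.1.1 quantified the spots and probe positions are on mm9, whereas the submitters' processing notes name version 9.1. The deposited values used are the processed intensity of each spot, background-corrected by that software, and the deposited 0 or 1 codes for well above background, saturation and outlier spots, a unit of other kind per the file headers. The series' own deposited value table (37877 probes) was an alternative; it holds another intensity, the median pixel intensity of the spots averaged per transcript and not background-subtracted, as a comparison with the scanner files showed (100% agreeing within a relative 0.0001).

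From these, log2 intensity minus the 75th percentile of the array was computed over 59305 non-control spots, with outlier spots (90 to 286 per array) left out and spots of 1 probe averaged. A gene was represented by its probe with the highest mean and was tested where every array of at least 1 group in the comparison was well above background. A gene dim in 1 group could therefore enter through the other group, which largely fixed the direction of its call. The test was limma 3.58.1 in R 4.3.3 (lmFit and eBayes, Benjamini-Hochberg adjustment over all genes tested, threshold 0.05) on the 2 groups compared. Differences of strain differences used all 6 groups. B6 quad 011 was left out. Python 3.11.15 with pandas 2.3.3, numpy 2.4.6 and matplotlib 3.10.9 and the R package data.table (version 1.17.8) were also used. No array was a copy of another (highest correlation of 2 arrays 0.986), and the number of arrays limits the precision.

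The 10 genes and all lists were chosen with earlier results of these data known. All 10 were described; from each of 3 other lists, up to 3 genes with the largest difference per strain comparison were named among those called without overlap, any gene of the non-muscle relatives could be named, and the 5 genes of most like pattern were taken by distance. On simulated data with 200 changed genes, the share recovered was taken for changes of 1, 2 and 4 on the log2 scale. Genes varied independently there, all counted as well above background, and far fewer changed than were called in the data. The shares below describe that simulation and need not hold for these data. The strain comparison in BAT (20697 genes) recovered 62.1%, 85.1% and 97.0%, with 4.68% false among those called. The strain comparison in gWAT recovered 63.6%, 92.5% and 98.5%, with 8.60% false. The strain comparison in quad recovered 57.6%, 80.6% and 97.0%, with 5.42% false. The strain difference in BAT against quad recovered 43.9%, 77.6% and 98.5%, with 7.55% false.

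Sample numbers recur across tissues, and the number was tried as a block. Deviations of same-numbered samples from their group means correlated at 0.173 to 0.344 between NZO BAT and NZO gWAT and at 0.104 to 0.377 between B6 quad and B6 gWAT. In these tissues the numbers were taken to pair the samples, a choice made on these same data. The other tissue pairs spanned 0, at -0.162 to 0.261 (NZO quad and BAT) and -0.266 to 0.119 (NZO quad and gWAT). In B6 they ran from -0.0839 to 0.0889 (quad and BAT) and from -0.152 to 0.433 (BAT and gWAT). Whether the numbers mark animals is therefore not settled. Alternatives were quantile normalization, centring on the median, normexp (offset 50), the series' table, no filter, every probe by itself, slide as a block, all groups in 1 fit (or only the tissues compared), B6 quad 011 kept in and leaving out each array.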

Additional observations from a re-analysis of the deposited data

Results flagged for a closer look

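Array B6 quad 011 lay far below the other B6 quad arrays for 5 genes. Its levels were 5.24 for Actn2, 9.27 for Actn3, 6.14 for Des, 6.75 for Ldb3 and 6.99 for Myot. These were 5 of 60 sets of 1 gene in 1 group of 4 arrays, and chance alone flags about 1 in 20 such sets. The 5 sets share 1 array and are not independent. On the same array, which was kept in only as an alternative, the mean level of 5 adipocyte markers was 6.54, above the 1.75 to 2.21 of the other B6 quad arrays. Their part in the lower muscle levels was not tested.

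The strain difference was tested between BAT and quad and was more negative in BAT for 8 genes. On the log2 scale it differed by -6.98 for Acta1, -8.26 for Actn3, -5.99 for Tcap, -6.52 for Myot, -7.66 for Ttn, -4.01 for Neb, -0.93 for Des and -4.74 for Cav3. Between BAT and gWAT it was more negative in BAT for 9 genes, by -8.46 for Acta1, -6.66 for Actn3, -5.25 for Tcap, -4.72 for Myot, -6.44 for Ttn, -3.60 for Neb, -1.30 for Des, -2.49 for Ldb3 and -6.54 for Cav3. Sizes for Actn3, Myot, Ttn and Cav3 include NZO BAT readings not well above background.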

How the results depend on the processing

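The 10 genes stayed lower in NZO BAT under every alternative run, with 9 or 10 called, except that the fit with the sample number as a replicate block called 6. That block uses 2 shared numbers, leaves 1 residual degree of freedom and called 433 of all genes, against 3248 without it; a number shared by strains does not pair animals. No paired analysis was possible for the strain comparisons in gWAT and quad because the strains share only number 009 there. In quad, 0 genes were called, against 1 (Ldb3) with normexp and 1 with the series' table. Leaving out 1 array gave 9 to 10 genes in BAT, 2 to 3 in gWAT, 0 to 0 in quad, 10 to 10 for quad against either fat and for B6 BAT against gWAT, 5 to 6 for NZO BAT against gWAT, 8 to 8 for the strain difference in BAT against quad and 9 to 9 in BAT against gWAT. With pairing in NZO BAT against gWAT, the block called 7 (5 higher), and it changed no other call for B6 quad against gWAT. The sign turned in 12 settings. In NZO BAT minus gWAT these were Actn3 0.23 (normexp) and 0.026 (series' table), Cav3 0.020 (normexp) and Ldb3 -3.35 (every probe). In quad they were Acta1 0.12 (quantile), 0.11 (slide) and 0.052 (B6 quad 011 kept), Actn2 -0.40 (every probe) and -0.022 (without NZO quad 009, with leave-one-out values from -0.022 to 0.24), Des 0.019 and Myot 0.054 (B6 quad 011 kept) and Tcap 0.10 (slide); the cause was not tested. Of the other settings for single genes, 1859 gave the same direction and side of the threshold, 40 lost the call and 16 gained it. The count of all genes called in quad was 2227 and became 1226 (centred), 1369 (no filter), 1083 (B6 quad 011 kept), 1411 (without NZO quad 007), 987 (without B6 quad 010) and 1015 (without B6 quad 009). For the strain difference in BAT against quad it was 1401 and became 561 (centred), 431 (slide), 905 (without B6 quad 010) and 824 (without B6 quad 009). Centring on the median moved the share of higher calls to 33.0% from 60.8% for NZO BAT against gWAT, to 41.2% from 58.0% (47.1% with quantile) for B6 BAT against gWAT, to 33.3% from 53.4% for NZO quad against gWAT and to 23.3% from 47.8% for the strain difference in BAT against gWAT. Signal over background limits the size of Actn3, Myot, Ttn and Cav3 in NZO BAT and any strain comparison of Actn2, Myot and Ttn in gWAT.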
